A study of Mus musculus with 30 samples.

Results

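Sst and Cort, the genes of the peptide precursors of somatostatin and cortistatin, were followed in cultured neurons of the embryonic mouse telencephalon with and without Xbp1. They were found as the probe sets whose platform symbol is Sst or Cort. Each had 1 probe set, 1417954_at for Sst and 1449820_at for Cort, so they make 2 of the 12394 genes measured. The study asked how brain-derived neurotrophic factor (BDNF) acts on neurons that lack Xbp1, a factor that turns on genes for protein folding in the endoplasmic reticulum. RNA from each of 30 dishes was hybridized to 1 Affymetrix Mouse Genome 430A 2.0 array after a double round of amplification.

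The Xbp1-/- (KO) cells came from 6 embryos and the Xbp1+/+ (WT) cells from 4, all dissected at embryonic day 12.5 from intercrosses of heterozygous mice. The telencephalon of the embryos of a genotype was pooled and split over 15 dishes, in serum-free Neurobasal medium with B27. In each genotype 5 dishes had no BDNF (basal), 5 had 100 ng/ml BDNF for 24 h and 5 for 48 h. BDNF was added on day 3 in vitro. Basal and 24 h dishes were lysed on day 4 and 48 h dishes on day 5, so at 48 h the time with BDNF and the day of lysis cannot be told apart. With 1 pool per genotype, p-values measure the spread between dishes, and genotype and pool cannot be told apart either.

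Somatostatin is a peptide transmitter and hormone made by GABA-releasing interneurons of the cortex and hippocampus and by neurons of the hypothalamus. Its precursor is cut in secretory granules, and the peptide inhibits its target cells through the receptors Sstr1 to Sstr5. Cortistatin is a related peptide of cortical and hippocampal interneurons that binds the same receptors. Transcription of Sst is a textbook case of control by CREB, the factor that binds the cAMP response element TGACGTCA. Cortical Sst interneurons are born in the medial ganglionic eminence (MGE) under Nkx2-1, Lhx6, Sox6 and Satb1.

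The promoters are shown because that element is the known feature of Sst transcription. Both genes had an entry among the RefSeq promoters of the mouse assembly GRCm38.p6, and the 250 bases before the annotated start are printed 5′ to 3′ on the gene's strand. Capitals mark TGACGTCA in the Sst window (chr16:23890845-23891094, minus strand) and CGTCA in the Cort window (chr4:149126764-149127013, minus strand), the letters of TGACG on the opposite strand.
Sst: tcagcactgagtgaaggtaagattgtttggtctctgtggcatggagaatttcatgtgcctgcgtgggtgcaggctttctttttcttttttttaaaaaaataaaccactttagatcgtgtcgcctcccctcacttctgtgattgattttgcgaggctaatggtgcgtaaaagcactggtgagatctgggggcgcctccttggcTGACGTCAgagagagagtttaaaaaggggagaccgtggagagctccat
Cort: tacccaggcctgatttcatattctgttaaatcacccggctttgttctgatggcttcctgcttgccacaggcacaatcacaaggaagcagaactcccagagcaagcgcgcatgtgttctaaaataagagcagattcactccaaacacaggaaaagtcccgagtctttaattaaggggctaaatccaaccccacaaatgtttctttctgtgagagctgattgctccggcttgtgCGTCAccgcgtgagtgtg

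The full motif, searched on both strands as TGACGTCA, lay 48 to 41 bases before the Sst start. It was in 508 of 32851 promoter windows of the same length, or 1.55%. The shorter TGACG, which the full motif holds on each strand, lay 18 to 14 bases before the Cort start and was in 17.8% of windows. The full motif was not in the Cort window. Of the promoters looked up for other genes of this account, those of Npy, Avp and Gad1 held neither motif, and those of Tac1, Scg3 and Gad2 held TGACG. Penk, Pnoc and Calb1 were looked up too and had no window to search. A match is a description of the letters and no measure of binding.

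The arrays had medians between 81.9 and 138 in units of deposited signal, and every signal was divided by its array's median and set on a log2 scale, with a floor at 0.1 of the median (log2 of -3.32). The brightest probe set of a gene stood for it, and the upper 60% of genes by mean signal, 7436, entered the main limma fit over all 30 arrays. Over these 7436 genes the pairwise correlations of the arrays were 0.941 to 0.994. Sst passed this filter. Cort, with a mean log2 of -1.51 against the filter's limit of -0.395, did not, and its tests come from a fit of all 12394 genes. "Rose", "fell" and "called" mean a Benjamini-Hochberg adjusted p under 0.05. Xbp1 itself did not show the genotype as a loss of signal: its brightest probe set ranged from 4.53 to 4.87 in KO dishes and from 4.37 to 4.82 in WT dishes. Another Xbp1 probe set, 1420011_s_at, was higher in all KO dishes (2.63 to 2.92) than in all WT dishes (1.23 to 2.07). Where these probe sets lie relative to the deleted part is not given in the sources used here, so Xbp1 signals do not check the genotype labels.

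Sst rose with BDNF in both genotypes and was lower in KO than in WT dishes at each time. In KO dishes without BDNF the 5 log2 signals of Sst were 2.77, 3.01, 2.88, 3.00 and 3.08. After 24 h of BDNF they were 3.48, 3.68, 3.76, 3.89 and 3.80 in KO dishes. After 48 h they were 3.89, 4.06, 4.13, 4.06 and 4.12 in KO dishes. No basal KO dish reached any KO dish with BDNF, and the lowest 48 h dish lay just above the highest 24 h dish. In WT dishes without BDNF Sst was at 3.87, 3.96, 4.09, 3.91 and 3.93. After 24 h of BDNF it was at 4.82, 4.54, 4.82, 4.87 and 4.92 in WT dishes. After 48 h it was at 5.13, 5.42, 5.23, 5.51 and 5.40 in WT dishes. The 3 WT groups did not overlap either, and each WT group lay above the KO group of the same time.

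**Figure D1:**
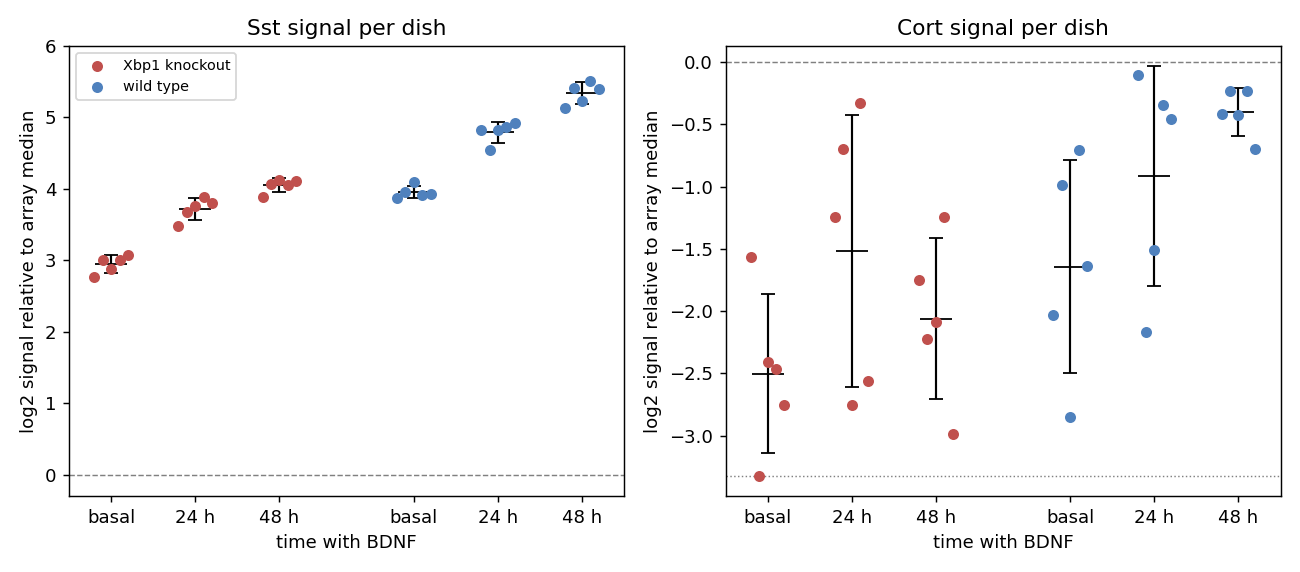
Log2 signal of Sst (left) and Cort (right) relative to the array median, 1 point per dish, at basal, 24 h and 48 h of BDNF, in Xbp1 knockout (red) and wild-type (blue) cultures; bars are the mean and SD of 5 dishes, the dashed line is the array median and the dotted line the floor. Sst steps up with time in both genotypes with small spread, while Cort lies below the median in all 30 dishes and scatters widely in every group but WT at 48 h.

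In KO cultures Sst averaged 2.95 ± 0.12 at basal, 3.72 ± 0.15 at 24 h and 4.05 ± 0.09 at 48 h on the log2 scale (SD, n = 5 each). The rise over basal was 0.77 ± 0.08 (SE) at 24 h (adjusted p = 1.08e-08) and 1.10 ± 0.08 at 48 h (adjusted p = 1.33e-12), or 1.71-fold and 2.15-fold. Among the 7436 tested genes 5.96% rose and 5.55% fell at 24 h in KO cultures, 19.4% rose and 9.47% fell at 48 h, and Sst had the 59th and the 43rd largest difference. Between 24 h and 48 h Sst rose by a further 0.33 ± 0.08 (adjusted p = 0.00905), a step that 7.49% of genes made in the same direction. That step did not pass when the Gapdh 3'/5' signal ratio, a sign of RNA quality, was a covariate (0.29, adjusted p = 0.229) or when only 48 h replicates 1 and 2 were used (0.26, adjusted p = 0.213). The Gapdh ratio averaged 2.39 in KO dishes at 48 h, 2.80 at 24 h and 2.73 at basal.

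In WT cultures Sst averaged 3.95 ± 0.08 at basal, 4.79 ± 0.15 at 24 h and 5.34 ± 0.15 at 48 h (log2, SD, n = 5 each). It rose by 0.84 ± 0.08 at 24 h (adjusted p = 1.32e-09) and by 1.38 ± 0.08 at 48 h (adjusted p = 4.81e-15), or 1.79-fold and 2.61-fold. In WT cultures 8.04% of tested genes rose and 6.4% fell at 24 h, 20.5% rose and 15.7% fell at 48 h, and the differences of Sst were the 54th and the 26th largest. Between 24 h and 48 h Sst rose by 0.54 ± 0.08 (adjusted p = 7.68e-05), as did 8.32% of genes. The Gapdh ratio averaged 2.47 in WT dishes at 48 h, 2.83 at 24 h and 2.86 at basal, and with it as a covariate the step was 0.51 (adjusted p = 0.00376). Dishes not overlapping in the upward direction were found for 4.42% of genes at 24 h and 12.6% at 48 h in KO cultures, and for 6.32% at 24 h and 10.9% at 48 h in WT cultures. Between 24 h and 48 h such a separation held for 6.66% of genes in KO and 4.55% in WT cultures.

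**Figure D2:**
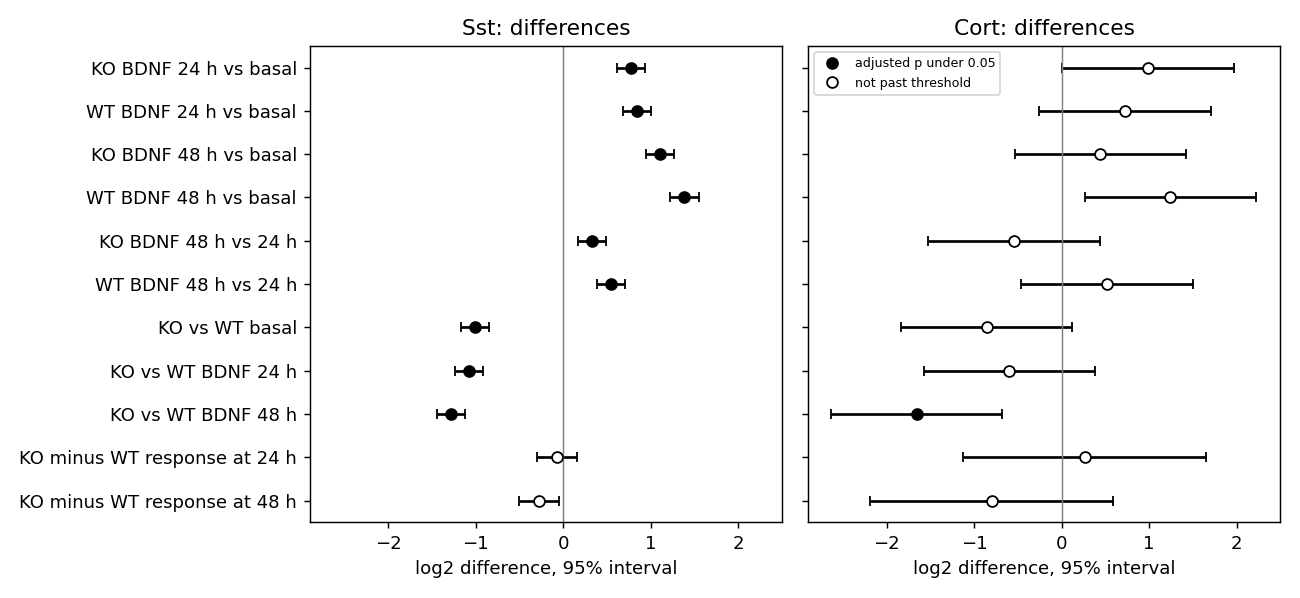
Fitted log2 differences of Sst (left) and Cort (right) in the 11 comparisons, with 95% intervals; filled points have an adjusted p under 0.05. All 9 comparisons of groups are filled for Sst, the differences in response are open for both genes, and for Cort the single filled point is KO against WT at 48 h.

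Against WT, Sst in KO dishes was lower by a log2 difference of -1.01 ± 0.08 (SE) at basal (adjusted p = 4.05e-12), -1.07 ± 0.08 at 24 h (adjusted p = 1.21e-12) and -1.29 ± 0.08 at 48 h (adjusted p = 9.92e-15). Of the tested genes 18.7% were called lower and 9.2% higher in KO at basal, 17.8% lower and 8.43% higher at 24 h, and 14.4% lower and 9.68% higher at 48 h. The median gene differed by -0.091 at basal, -0.095 at 24 h and -0.073 at 48 h. Lower dishes with no overlap were found for 11.9%, 11.2% and 8.97% of genes at these times. Counted from the lowest difference, Sst was 34th at basal, 23rd at 24 h and 9th at 48 h. In array-median units, the mean signal of Sst was 7.74 in KO and 15.5 in WT dishes at basal, 13.2 and 27.9 at 24 h, and 16.6 and 40.6 at 48 h. In a bulk culture, fewer Sst cells and less Sst RNA per cell cannot be told apart.

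The order of Sst levels over the 6 groups was KO basal, KO at 24 h, WT basal, KO at 48 h, WT at 24 h and WT at 48 h. The neighbours KO at 48 h and WT basal did not differ beyond their spread: the difference was 0.098 (95% interval -0.064 to 0.26, adjusted p = 0.334) and the dishes overlapped. KO at 24 h was below WT basal by a log2 difference of -0.23 (adjusted p = 0.0208), and KO at 48 h was below WT at 24 h by -0.74 (adjusted p = 5.17e-09).

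The response of Sst to BDNF was compared between genotypes as the difference of the log2 rises, KO minus WT. At 24 h it was -0.067 (95% interval -0.30 to 0.16, adjusted p = 0.9997). At 48 h it was -0.28 ± 0.11 (95% interval -0.51 to -0.051), with an adjusted p of 0.547 over all tested genes. At 24 h 0.0941% of genes passed this test and at 48 h 0.134%, and Sst was not among them. On the linear scale, an analysis chosen after the data were seen, the gain of Sst was 8.88 array medians in KO and 25.1 in WT cultures at 48 h, a difference of -16.2 (adjusted p = 1.68e-06). At 24 h the linear gains were 5.50 in KO and 12.3 in WT, a difference of -6.83 that did not pass (adjusted p = 0.112). The mean signal of Sst at basal was 7.74 array medians in KO and 15.5 in WT dishes. An equal fold rise would therefore already give a smaller gain in units in KO, and the linear difference carries the basal difference. The linear result does not by itself show a different response to BDNF. The fold gains at 48 h were 2.15 in KO and 2.62 in WT cultures as ratios of mean scaled signals. The difference of the log2 rises did not pass the test.

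Cort lay near the bottom of the measurable range. All 30 dishes were below the array median, and 1 KO dish was at the floor, where a value is only an upper bound. In KO dishes Cort was at -1.56, -3.32, -2.41, -2.46 and -2.75 at basal. At 24 h it was at -1.25, -0.70, -2.76, -0.33 and -2.56, and at 48 h at -1.75, -2.23, -2.09, -1.25 and -2.99 in KO dishes. The 3 KO groups overlapped. In WT dishes Cort was at -2.03, -0.98, -2.85, -0.70 and -1.64 at basal. At 24 h it was at -0.10, -2.17, -1.51, -0.35 and -0.46, and at 48 h at -0.42, -0.23, -0.42, -0.23 and -0.69 in WT dishes. The WT dishes at 48 h lay close together above all WT basal dishes and all KO dishes at 48 h. The spread of Cort between dishes of a group, a residual SD of 0.77, was well above the 0.19 of the median gene and the 0.13 of Sst.

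At 48 h Cort was lower in KO than in WT dishes by a log2 difference of -1.66 ± 0.48 (adjusted p = 0.0159, limma on all 12394 genes). In that fit 8.46% of genes were called lower in KO at 48 h, and 6.08% were lower with no overlap. Without KO replicate 5 at 48 h the difference was -1.43 and did not pass (adjusted p = 0.0544). It did not pass with 48 h replicates 1 and 2 alone (-1.66, adjusted p = 0.271) or replicates 3 to 5 alone (-1.66, adjusted p = 0.134), each with fewer dishes. No other comparison of Cort passed. At basal KO minus WT was -0.86 (95% interval -1.84 to 0.12, adjusted p = 0.246), and at 24 h it was -0.60 (95% interval -1.58 to 0.38, adjusted p = 0.447).

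With BDNF, Cort in WT cultures differed from basal by 0.72 at 24 h (adjusted p = 0.411) and by 1.24 ± 0.48 at 48 h (adjusted p = 0.0601). The 48 h and basal WT dishes did not overlap, which held in the upward direction for 7.29% of all genes, and 12.3% of all genes were called higher. The adjusted p of this comparison lay on either side of 0.05 depending on the scaling and on the treatment of low values, and was 0.0447 with quantile normalization and 0.00681 with the values as deposited. In KO cultures the differences from basal were 0.98 at 24 h (adjusted p = 0.265) and 0.44 at 48 h (adjusted p = 0.602). The difference in response was 0.26 at 24 h (95% interval -1.13 to 1.65) and -0.80 at 48 h (-2.19 to 0.59), with adjusted p of 1 and 0.909. Over the 30 dishes the log2 signals of Cort and Sst correlated with r = 0.65, and their deviations from the group means with r = -0.046. The first value includes the differences between group means. For Cort, only the difference of KO against WT at 48 h passed among these.

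Of the somatostatin receptors, Sstr2 alone passed the filter on low signals. Sstr2 was lower in KO than in WT dishes at 48 h, with means of 0.11 and 0.95 and a difference of -0.83 ± 0.20 (adjusted p = 0.00245), although the dishes overlapped. Its differences at basal (-0.28) and 24 h (-0.26) did not pass, nor did its 4 differences with BDNF. Sstr1 was at the floor in all but 3 dishes, and Sstr4 was at the floor in at least 4 of 5 dishes of every group. Sstr3 and Sstr5 lay below the array median in every dish. In the fit of all genes, Sstr3 was higher by 0.65 (adjusted p = 0.0420) and Sstr5 lower by 0.91 on the log2 scale (difference -0.91, adjusted p = 0.0431) at 48 h in WT cultures, both from dishes at or near the floor.

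Among 9 measured genes that process or sort peptide precursors, 1 rose at 24 h and 4 rose at 48 h in KO cultures, and 3 rose at 24 h and 5 at 48 h in WT cultures. In KO cultures 1 fell at 48 h, and in WT cultures 1 fell at 24 h and 2 at 48 h. Of all tested genes 5.96% rose at 24 h and 19.4% at 48 h in KO, and 8.04% and 20.5% in WT cultures. At 48 h 9.47% fell in KO cultures, and in WT cultures 6.4% fell at 24 h and 15.7% at 48 h. The median log2 difference of the 9 was 0.10 at 48 h in KO and 0.38 in WT cultures, beside 0.045 and 0.023 over all tested genes. Pcsk1, a prohormone convertase, rose by 1.22 in KO and 0.38 in WT cultures at 48 h. Pcsk5, another convertase, rose by 0.24 in KO and 1.07 in WT cultures at 48 h. Pcsk1 rose more in KO and Pcsk5 more in WT cultures, and the differences in response, 0.84 ± 0.17 (adjusted p = 0.0356) and -0.83 ± 0.13 (adjusted p = 0.00264), were 2 of the 10 called among all genes at 48 h. Scg5, a chaperone of the convertase Pcsk2, rose by 0.84 in KO and 0.73 in WT cultures, and Qpct, glutaminyl cyclase, by 1.27 in KO and 1.44 in WT cultures at 48 h. Cpe, carboxypeptidase E, differed by -0.042 in KO and -0.0069 in WT cultures at 48 h and did not pass. Pcsk2 was not analysed here.

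Of 6 tested genes of the CREB family and its partners, 2 rose at 24 h and 3 at 48 h in each genotype, beside 5.96% of all tested genes in KO and 8.04% in WT cultures at 24 h, and 19.4% in KO and 20.5% in WT cultures at 48 h. Their median difference at 48 h was 0.12 in KO and 0.19 in WT cultures, beside 0.045 and 0.023 over all tested genes. With quantile normalization 2 rose and 1 fell at 48 h in each genotype. Crem, a CREB relative with activating and repressing forms, rose by 0.61 in KO and 0.60 in WT cultures at 48 h. Creb3, a membrane-bound relative, rose by 0.41 in KO and 0.54 in WT cultures at 48 h. Creb1 itself did not pass with BDNF in either genotype. Of 200 tested genes with TGACGTCA in the promoter window, Sst included, 26% rose at 48 h in KO and 29% in WT cultures. Of 5896 tested genes with a window but no such motif, 19.1% rose in KO and 19.9% in WT cultures. These shares are descriptions with no test.

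Genes known from Sst interneurons moved with BDNF in part. Of 9 tested, 6 rose in KO cultures at 24 h and at 48 h, and 5 rose in WT cultures at 24 h and at 48 h. Their median difference at 48 h was 0.97 in KO and 1.16 in WT cultures, beside 0.045 and 0.023 over all tested genes. Of all tested genes 5.96% rose at 24 h and 19.4% at 48 h in KO, and 8.04% and 20.5% in WT cultures. Npy, neuropeptide Y, rose by 2.63 ± 0.10 in KO and 3.18 ± 0.10 in WT cultures at 48 h, more than Sst on this log2 scale of differences. Pnoc, the nociceptin precursor, rose by 1.70 in KO and 2.17 in WT, Tac1, the substance P precursor, by 1.43 and 1.26, and Penk, the enkephalin precursor, by 0.97 and 1.30. Calb1, the calcium buffer calbindin, rose by 1.22 in KO and 1.16 in WT cultures. Reln, the matrix protein reelin, rose in KO cultures by 0.27 and differed in WT cultures by -0.14 (adjusted p = 0.176). Chodl fell by 0.58 in KO cultures at 24 h and did not pass in the other BDNF comparisons. Calb2 and Nr2f2 passed in none.

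**Figure D3:**
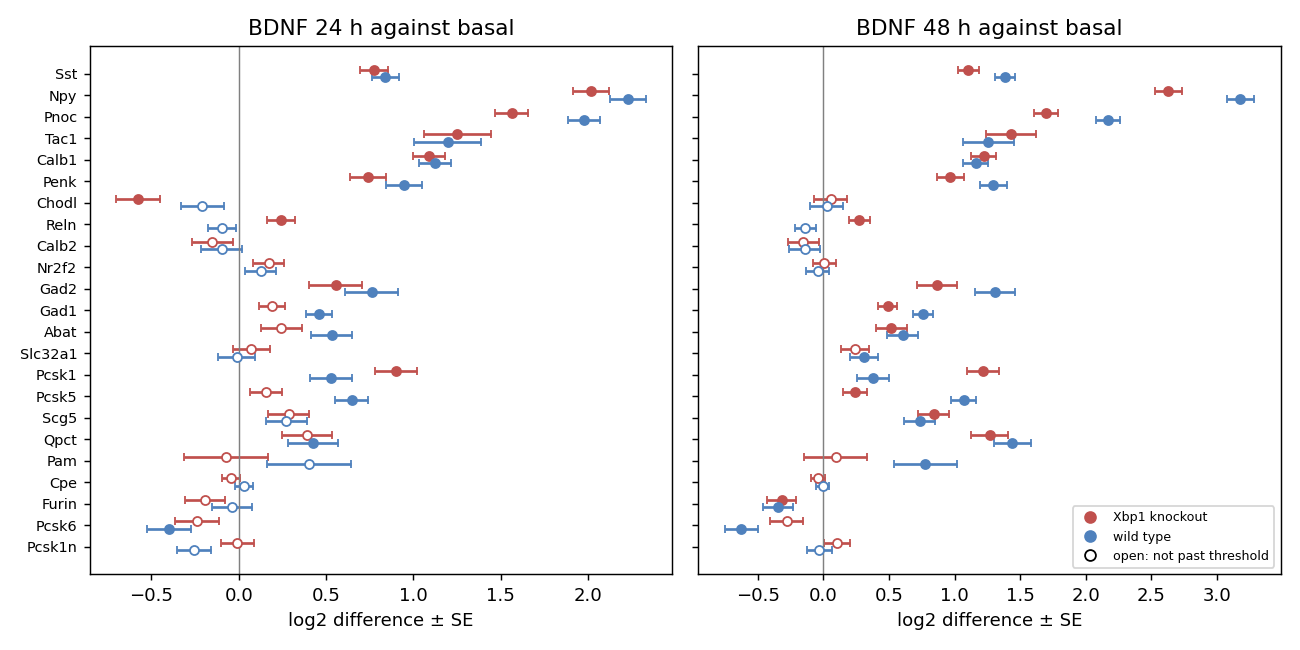
Log2 difference with SE for Sst, the tested genes known from Sst interneurons, the GABA genes and the peptide-processing genes after 24 h (left) and 48 h (right) of BDNF against basal, in knockout (red) and wild-type (blue) cultures; open points have an adjusted p of 0.05 or more. At 48 h Npy, Pnoc and Qpct lie to the right of Sst in both genotypes, and Tac1, Calb1 and Pcsk1 do so in knockout cultures. Pcsk1 and Pcsk5 differ most between genotypes at 48 h.

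The transcription factors of the MGE and Sst lineage did not rise with BDNF: of 10 tested, 0 rose by limma at either time in either genotype, and 3 fell in KO and 5 in WT cultures at 48 h. Over all tested genes 9.47% fell in KO and 15.7% in WT cultures at 48 h. At 24 h 0 fell in KO and 1 fell in WT cultures, where 6.4% of all tested genes fell. At an unadjusted p under 0.05, 0 were higher in KO cultures at either time or in WT at 24 h, and 1 was higher in WT at 48 h. This was Satb1, which differed by 0.077 in KO and by 0.27 in WT cultures at 48 h (adjusted p = 0.646 and 0.0651). Lhx6, the factor that MGE interneurons need to become Sst or Pvalb cells, differed by -0.19 in KO (adjusted p = 0.0630) and fell by 0.20 in WT cultures at 48 h. Nkx2-1, which specifies the MGE, was at the floor in 1 to 3 of 5 dishes of every group. Of 4 GABA genes, 1 rose in KO and 3 in WT cultures at 24 h, and 3 in KO and 4 in WT at 48 h. Over all tested genes 5.96% rose in KO and 8.04% in WT at 24 h, and 19.4% and 20.5% at 48 h. Gad1 and Gad2, which make GABA, rose by 0.49 and 0.87 in KO and by 0.76 and 1.31 in WT cultures at 48 h. Of other interneuron classes, Pvalb was below the array median in all dishes. Cck, tested in the main fit, rose by 0.47 in KO and 0.41 in WT cultures at 48 h. Vip, Htr3a, Lamp5 and Adarb2 did not pass the filter on low signals and were tested in the fit of all genes. There Vip rose by 2.17 in KO and 2.17 in WT cultures at 48 h. Htr3a, a serotonin-gated channel of another interneuron class, differed by -0.48 in KO cultures at 48 h (limma adjusted p = 0.322) and fell by 0.997 in WT cultures (adjusted p = 0.0197), in the same fit. Lamp5 differed by -0.56 in KO and 0.19 in WT cultures, and Adarb2 by -0.36 in KO and 0.11 in WT cultures, and neither passed in either genotype. Adarb2 was at the floor in 2 of 5 KO dishes at basal, 3 at 24 h and 2 at 48 h.

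Against WT, the lineage factors were lower in KO dishes together with Sst. Of 10 tested, 8 were lower and 1 higher in KO at basal, 7 lower and 1 higher at 24 h, and 7 lower and 2 higher at 48 h. Their median differences were -0.62, -0.62 and -0.60 at these times, beside -0.091, -0.095 and -0.073 over all tested genes. Of all tested genes 18.7% were lower and 9.2% higher in KO at basal. The shares were 17.8% and 8.43% at 24 h, and 14.4% and 9.68% at 48 h. Lhx6 averaged 1.61 ± 0.14 in KO and 2.56 ± 0.16 in WT dishes at basal (SD, n = 5 each), a difference of -0.95 ± 0.08 (adjusted p = 1.55e-11). Sox6 was lower by a difference of -0.57 and Satb1 by -0.68 at basal, and Zfhx3 was higher by 0.82. Over the 30 dishes, Lhx6, Sox6 and Satb1 correlated with Sst with r of 0.61, 0.45 and 0.74. Dlx1, Dlx2, Dlx5 and Dlx6 lay between 0.40 and 0.65. The MGE factor Lhx8 went the other way with -0.69, as did Zfhx3 with -0.86, and Zeb2 was at -0.046. Among the Sst interneuron genes 4 of 9 were lower in KO at each time, namely Calb1 (-0.92 at basal), Reln (-0.95), Chodl (-0.88) and Npy (-0.61). Pnoc and Penk were higher in KO at basal, by 0.29 and 0.42, and did not pass at 24 h or 48 h.

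Markers of brain region and of non-neural cells differed between the same groups. Of 6 measured telencephalon markers, 6 were lower in KO at basal, at 24 h and at 48 h, with a median difference of -1.01 at basal. Over all tested genes 18.7% were lower and 9.2% higher at basal, and 17.8% and 14.4% were lower at 24 h and 48 h. The summed signal of the 6 ranged from 15.1 to 16.9 array medians in KO and from 29.0 to 35.5 in WT dishes at basal, and from 14.1 to 16.5 in KO and 25.9 to 32.9 in WT dishes at 48 h. Neurod6, a marker of cortical excitatory neurons, differed by -1.38 at basal, and Lhx2, a selector of cortical fate, by -1.22. Of 7 tested hypothalamic and diencephalic genes, 3 were higher in KO at basal, with Tcf7l2 at 1.40 and Lhx9 at 1.31 as the largest. Their median difference was 0.022, beside -0.091 over all tested genes, and Oxt at -0.40 and Hcrt at -0.31 lay below 0 without passing. The summed signal of the 13 measured ones was 16.8 to 21.9 in KO and 11.9 to 14.8 in WT dishes at basal. Of 6 tested vascular and meningeal markers, 5 were higher and 1 lower in KO at basal, and the sum of the 10 measured ones was 117 to 147 in KO and 60.8 to 72.3 in WT dishes. The endothelial markers Pecam1, Cdh5, Kdr and Tek did not pass the filter on low signals. The tested ones were Col1a1, Col1a2, Dcn, Lum, Pdgfrb and Rgs5. Over the 30 dishes Rgs5 correlated with Sst with r = 0.73, and the others with r from -0.85 to -0.61. Lum and Dcn, proteoglycans of connective tissue, were higher by 1.99 and 1.41. The part of these markers in the difference of Sst between genotypes was not tested.

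**Figure D4:**
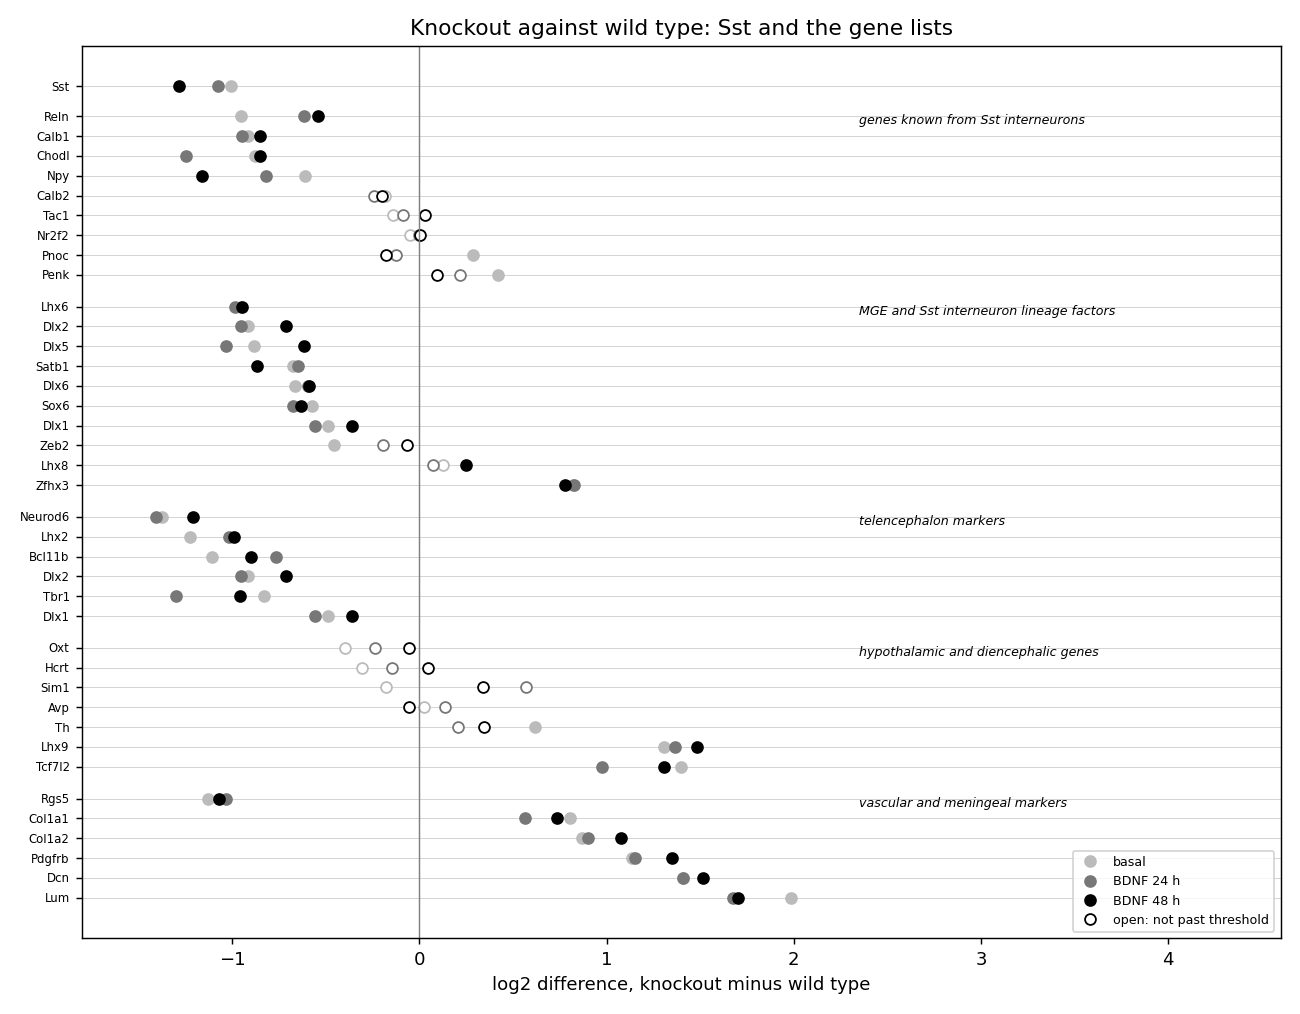
Log2 difference, knockout minus wild type, of Sst and the tested members of 5 gene lists at basal (light), 24 h (grey) and 48 h (black) of BDNF; open points have an adjusted p of 0.05 or more, and Dlx1 and Dlx2 stand in 2 lists. Sst lies left of 0 with the telencephalon markers and 7 or 8 of the 10 lineage factors, and most vascular and meningeal markers lie right of 0.

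Of all tested genes 18.7%, 17.8% and 14.4% were lower in KO at basal, 24 h and 48 h, and 9.2%, 8.43% and 9.68% higher. Of 13 tested pan-neuronal genes, 2 were lower in KO at basal, 3 lower and 1 higher at 24 h, and 6 lower at 48 h. Their median difference was -0.12 at basal and -0.23 at 48 h, beside -0.091 and -0.073 over all tested genes. With quantile normalization 3 were higher and 2 lower at 24 h. Their summed signal overlapped between genotypes, with 298 to 329 array medians in KO and 318 to 356 in WT dishes at basal, and 335 to 375 in KO and 326 to 393 in WT dishes at 48 h. Gad1, found in GABA neurons of all kinds, differed between KO and WT by -0.078 at basal (adjusted p = 0.457) and was lower at 24 h and 48 h by -0.35. Of the 4 tested GABA genes, 1 other than Gad1 was lower in KO at basal, 1 was lower at 24 h and 2 at 48 h. At each time 0 were higher, and with quantile normalization 0 were lower at basal. Among tested markers of other cell types at basal, 3 of 4 astrocyte, 1 of 2 oligodendrocyte and 4 of 10 progenitor genes were lower in KO, and 1 astrocyte, 1 of 5 microglia and 2 progenitor genes were higher. The astrocyte genes Aqp4, Gfap, S100b and Slc1a2 did not pass the filter on low signals. Against the count, the sum of the 8 measured astrocyte genes at basal was 52.6 to 61.7 in KO and 43.4 to 52.7 in WT dishes. A list of genes near Sst on chromosome 16 and Cort on chromosome 4 had 5 tested members, Masp1, Bcl6, Dffa, Pgd and Kif1b. The close neighbours Rtp4 and Pex14 were not in this list, and Kif1b lies further off than these. Of the 5, 1 was lower in KO at basal, 2 were lower at 24 h, and 2 were lower and 1 higher at 48 h. Over all tested genes 18.7%, 17.8% and 14.4% were lower at these times, and 9.68% were higher at 48 h. Of the tested neighbours of Sst, Masp1 differed by -0.71 at basal and Bcl6 by 0.24 (adjusted p = 0.213).

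The genes whose log2 signal followed Sst most closely over the 30 dishes were Sh3kbp1 (Pearson r = 0.965), Scg3 (0.962), Lgi1 (0.954), Calb1 (0.949) and St8sia5 (0.944), followed by Plppr4, Plekhb2, Spred2, Nrcam and Arpc5l. Of these 10, 7 were again among the closest 10 after quantile normalization, the first 5 included. Lgi1, a secreted synaptic protein, shows the shared pattern: it rose by 0.87 in KO and 0.89 in WT cultures at 48 h, and was lower in KO by a difference of -0.56 at basal. Scg3, a granule protein that sorts peptide cargo, rose by 0.35 in KO and 0.46 in WT cultures at 48 h and was lower in KO by -0.31 at basal. These dishes share pools, times and array scaling, so the values describe a shared pattern over groups. Within groups, the deviations of Sst from the group means were closest to those of Atp5g1 (r = 0.815), Myl12b, Fkbp9, Tbcd and Scg3 (0.774), and 1 of these 5 was again among the first 5 after quantile normalization.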

How the data were processed

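RNA of 30 dishes was measured on 30 arrays, 5 per group. The deposited values are signal intensities on a linear scale made by the authors with MAS5, per the submitters' processing notes, and no version is given in the sources used here. All 22690 probe sets were listed. Of these, 20393 carried 1 gene symbol, 691 several and 1606 none, and only the first kind was used. Signals were divided by the array median, floored at 0.1 and set to log2. Sst and Cort were tested with limma 3.58.1 in R 4.3.3 (6 group means, empirical Bayes with intensity trend, 30 arrays, two-sided, Benjamini-Hochberg within each of 11 comparisons); this was tested on simulated data. The number of arrays limits the precision, and no detection calls were used. Replicate numbers were not used to pair the dishes in the main fit. Same-number deviations correlated between -0.175 and 0.281 over 45 pairs. Different-number dishes were not compared, so this range cannot exclude a pairing. Sst and Cort and the 16 gene lists were chosen with earlier results of these data known. Genes named are the members of the lists on receptors, processing, CREB, lineage and interneurons, up to 4 called members of the other lists, and those most alike to Sst. Alternatives covered scaling, floor, filter, threshold, probe sets, array weights, RNA quality, replicate block, exact permutation and left-out dishes.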

Additional observations from a re-analysis of the deposited data

Results flagged for a closer look

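Within a group of 5 dishes, 1 KO dish at 48 h (replicate 1) had an Sst log2 signal of 3.89, against 4.06 to 4.13 in the other 4. The gap was 0.712 of the range, above Dixon's 95% critical value. In WT cultures at 24 h replicate 2 had 4.54, against 4.82 to 4.92, with a gap of 0.747 of the range. Chance flags about 1 in 20 groups, and 18 groups were examined over Sst, Cort and Xbp1. The differences of Sst kept their calls without either dish. The BDNF response at 48 h differed between genotypes, by the test of that difference, for Pcsk1 (0.84) and Pcsk5 (-0.83).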

How the results depend on the processing

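The differences of Sst between groups kept direction and call in the alternatives listed under processing except the second-day step in KO cultures, which was 0.29 (adjusted p = 0.229) with the Gapdh ratio as covariate and 0.26 (adjusted p = 0.213) with 48 h replicates 1 and 2 only. On the linear scale, added after seeing the data, that step was 3.38 array medians (adjusted p = 0.0948). The difference in linear gain at 48 h, which carries the lower basal signal of KO dishes, was -16.2 (adjusted p = 1.68e-06). The cause was not tested. With each dish left out in turn, the Sst difference in response at 48 h ranged from -0.33 to -0.24 and never passed. For Cort, WT at 48 h against basal passed with quantile normalization (1.32, adjusted p = 0.0447), values as deposited (1.55, 0.00681), a pseudocount (0.99, 0.0327), a lower floor (1.24, 0.0491), the replicate block (1.24, 0.0323), array weights (1.28, 0.0448) and the Gapdh covariate (1.94, 0.0338). An exact two-sided permutation test gave 1.24 with p = 0.00794 unadjusted, the smallest that 5 dishes against 5 allow. Leaving out a dish gave 0.94 to 1.48, past the threshold without WT basal replicate 2 or 4. Cort in KO against WT at 48 h did not pass at a threshold of 0.01 (-1.66, adjusted p = 0.0159), with replicates 1 and 2 only (-1.66) or 3 to 5 only (-1.66), and ranged from -1.86 to -1.43 with a dish left out. Cort in KO at 48 h against 24 h turned to 0.19 with the Gapdh covariate. The Cort difference in response at 24 h turned to -0.037 without KO replicate 4 and to -0.052 without WT replicate 2 at 24 h, with a range of -0.052 to 0.57. The replicate block changed no other call. Scaling moved the counts over all genes: of those called in KO at 48 h against basal, 67.2% were higher, and 41.5% after scaling by the 75th percentile; in KO against WT at basal 33.0% were higher, and 46.3%. No called gene of the 16 lists turned direction under quantile normalization or scaling by the 75th percentile, and neither moved the median gene by over 0.1. Values as deposited called 3731 genes in place of 2147 and 841 in place of 2073 in these comparisons. Near the floor, the 95% intervals of Cort were several times as wide as those of Sst.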
